A study of Homo sapiens with 6 samples.

Results

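The genes described here are 37 genes of the lysosome and of autophagy, taken by symbol from the 16832 gene symbols that each library lists: lysosomal hydrolases, lysosomal membrane proteins, subunits of the lysosomal proton pump, transcription factors of the MiT/TFE family and autophagy genes. All 37 were listed in every library. They were followed in the human glioma line U251, an established cell line whose genotype is labelled WT in every library. SLCDS, a small-molecule cocktail of unnamed components, was given for 18 days to the cells of 3 libraries, and the control cells of 3 further libraries received PBS. How long the controls were cultured is not labelled, nor whether the 3 libraries of a group came from separate cultures, so p-values measure the spread between these libraries, which may be technical. The title of the series speaks of neuronal-like cells obtained with SLCDS, and the question put to the data is which genes are expressed differently after SLCDS.

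Lysosomes are acidic organelles in which hydrolases break down proteins, glycans and lipids delivered by endocytosis or by autophagy. A proton pump, the V-ATPase, keeps their lumen acidic, and heavily glycosylated membrane proteins line it. The MiT/TFE factors TFEB, TFE3 and MITF bind E-box sequences in the promoters of many lysosomal genes and are held in the cytoplasm by mTORC1 signalling when nutrients are plentiful. The element they bind in lysosomal promoters is known as the CLEAR motif, which contains the E-box CACGTG.

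RefSeq promoters, from 250 bases before to 50 bases after the annotated start in GRCh38.p14, were at hand for 27 of the 37 genes, and where several starts were listed, as for 5 genes, the one listed at the top was read. The E-box CACGTG, which reads the same on both strands, was present in 9 of the 27 (33.3%), against 10.3% of the promoters of 9425 tested genes and 7.43% of 27305 promoters in all. The longer form TCACGTG or its reverse complement CACGTGA was present in 8 (29.6%, against 6.03% of the tested promoters), the palindrome TCACGTGA in 5 (18.5%, against 2.04%) and the CLEAR motif, here TCACGTGA with a G before and a C after it, in 2, those of GAA and MCOLN1 (7.41%, against 0.817%). These motifs are nested, so each longer one is also counted among the shorter ones. The windows of 30 bases around the most upstream E-box of each of the 9 promoters are shown because they are the element the MiT/TFE factors are known to read, and capitals mark the longest of these motifs at that E-box. The CLEAR match of MCOLN1 is at its other E-box, which starts at -14 relative to the gene's start.

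ATP6V0D1 (chr16:67481199-67481228, minus strand): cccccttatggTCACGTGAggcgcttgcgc
CD63 (chr12:55729172-55729201, minus strand): ccgggtaggggcCACGTGgccctggccggg
CTSA (chr20:45891281-45891310, plus strand): gaggaagactgTCACGTGgcgccggagttc
CTSD (chr11:1763957-1763986, minus strand): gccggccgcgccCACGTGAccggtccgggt
CTSF (chr11:66568712-66568741, minus strand): acatataacaagCACGTGAtagaggtcagt
GAA (chr17:80101493-80101522, plus strand): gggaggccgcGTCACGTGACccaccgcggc
LAMP1 (chr13:113297035-113297064, plus strand): accaggccgggTCACGTGggtccagggtca
MCOLN1 (chr19:7522571-7522600, plus strand): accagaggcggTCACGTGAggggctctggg
NEU1 (chr6:31862930-31862959, minus strand): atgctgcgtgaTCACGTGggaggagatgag

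Levels are in FPKM, a fragment count corrected for transcript length and sequencing depth, and differences are fold changes of FPKM + 1 on the log2 scale, SLCDS over control, which understates the change of low genes. A gene is said to have risen or fallen where limma's test, adjusted by Benjamini-Hochberg over the 11506 genes tested, gave a value under 0.05. The test took in genes that reached 1 FPKM in at least 3 libraries. The libraries held about 16600000 to 17200000 fragments in SLCDS and 16300000 to 17000000 in control, so 1 FPKM of a 2000-nucleotide transcript came from 32.5 to 34.3 fragments. Control replicate 3 stood apart: it correlated with control replicates 1 and 2 at 0.9765 and 0.9767 across tested genes, against 0.9966 to 0.9970 among the SLCDS libraries and 0.9969 between control replicates 1 and 2, so results are also given without it. Markers of astroglia and glioma were high in every library, with VIM at 1499 to 1570 FPKM in SLCDS and 1374 to 1725 in control, SOX2 at 370 to 388 FPKM in SLCDS and 420 to 445 in control, NES at 250 to 256 in SLCDS and 201 to 227 in control, and GFAP at 127 to 141 in SLCDS and 312 to 354 in control. S100B had a lower level than these, at 15.0 to 19.7 FPKM in SLCDS and 11.7 to 16.5 in control. Of the 7 such markers 1 fell and 1 rose, where 1.82% of all tested genes fell and 4.28% rose. GFAP fell (log2 fold change -1.32, limma, adjusted p = 5.96e-04). OLIG2 rose, at 2.28 to 3.05 FPKM in SLCDS and 1.21 to 1.86 in control (0.59, limma, adjusted p = 0.0388, called in 10 of 18 alternative settings). Without control replicate 3, S100B, NES and OLIG2 were higher and GFAP, SOX2 and EGFR lower. In that fit 16.0% of all tested genes were higher and 11.8% lower.

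Of the 37 genes, 36 passed the expression filter, and 3 of these rose in SLCDS cells (8.33%), where 4.28% of all tested genes rose. They were CTSC, GPNMB and WIPI1. In either direction the share was the same 8.33%, against 6.09% of all tested genes. None of the 36 fell by limma, where 1.82% of all tested genes fell. At an unadjusted p under 0.05 by limma, 6 were higher (16.7%, against 10.8% of all tested genes) and 2 lower (5.56%, against 7.81%). The median log2 fold change of the 36 genes was 0.01, against 0.00 over all tested genes. The groups were without overlap in FPKM for 10 of the 36 (27.8%), against 29.1% of all tested genes, with SLCDS above control for 6 of them and below for 4. Against control replicates 1 and 2 alone, 22 did not overlap (61.1%, against 54.4% of all tested genes), 17 with SLCDS above and 5 with SLCDS below. Without control replicate 3, 14 of the 36 were higher (38.9%, against 16.0% of all tested genes) and 2 lower (5.56%, against 11.8%), and their median was 0.09, against 0.00 over all tested genes. The 37 genes together took 1.55% to 1.58% of all FPKM in SLCDS libraries and 1.56% to 1.63% in control libraries. A large part of this was PSAP, with 2298 of the 4875 FPKM in SLCDS replicate 1. Leaving PSAP aside, SLCDS replicates 1 to 3 held 2576, 2504 and 2559 FPKM of the set. Control replicates 1 to 3 held 2289, 2331 and 2867 FPKM of it. Taken as a share of all FPKM, this remainder was higher in every SLCDS library than in any control, narrowly for control replicate 3. That difference was not tested.

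**Figure D1:**
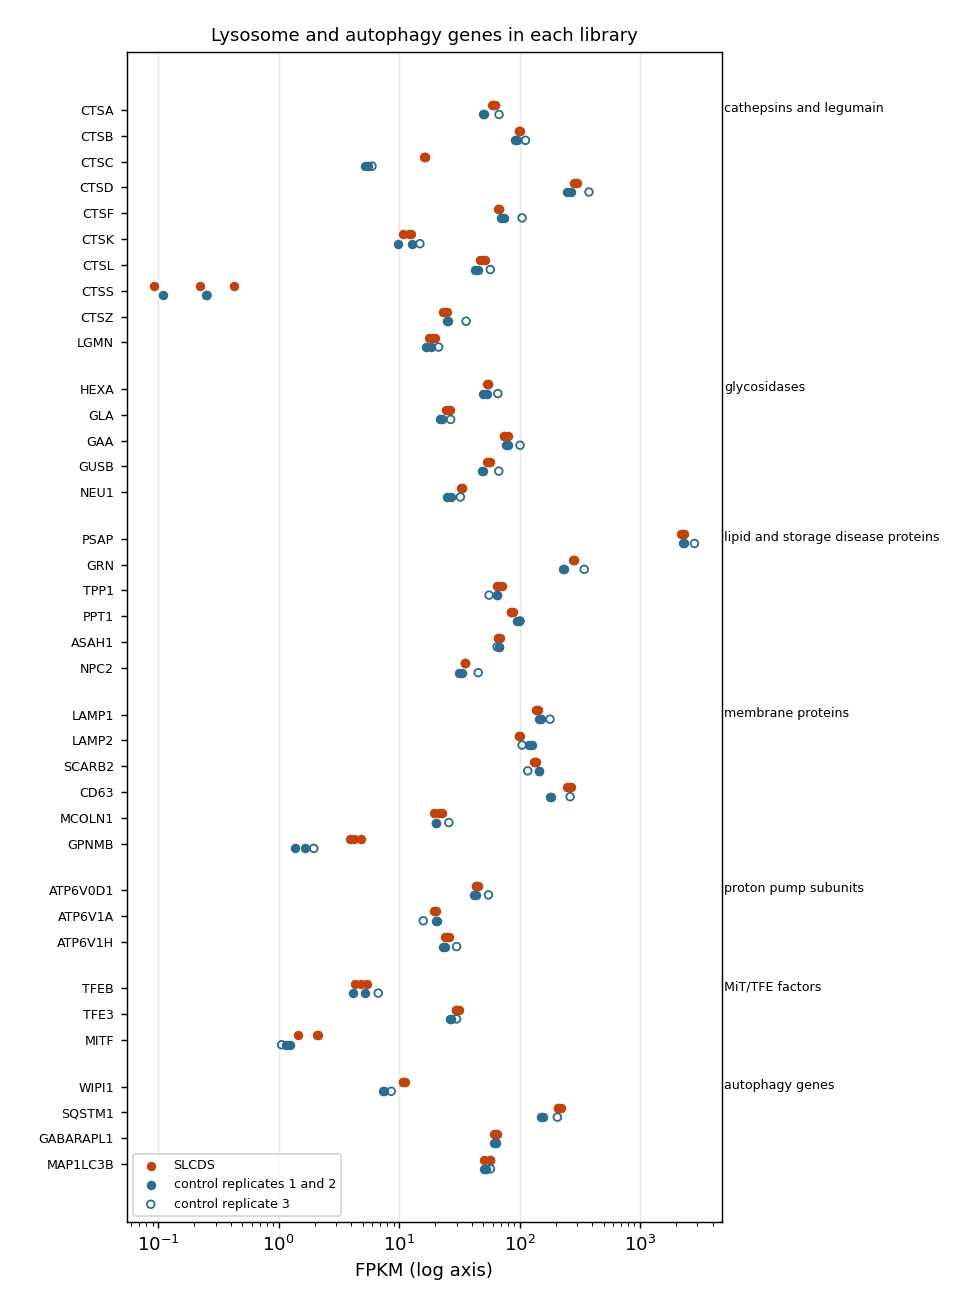
FPKM of the 37 genes in each library on a log axis, grouped by role, with SLCDS libraries in orange above control libraries in blue and control replicate 3 as an open circle. CTSC, GPNMB and WIPI1 have all SLCDS points to the right of all control points, and control replicate 3 lies to the right of the other controls for 29 of the 36 tested genes.

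CTSC encodes cathepsin C, a dipeptidyl peptidase that activates serine proteases of immune cells by trimming their ends. It had 16.5, 16.0 and 16.3 FPKM in SLCDS libraries, against 5.18, 5.56 and 5.96 FPKM in control libraries. Every SLCDS library was far above every control library, control replicate 3 included. The mean FPKM was 2.92 times as high (16.2 ± 0.254 in SLCDS and 5.57 ± 0.392 in control, SD, n = 3 each, as for all values with ± that follow), and the log2 fold change was 1.39 (SE 0.07; limma, adjusted p = 2.61e-04). Over the 19 alternative settings CTSC was called in all 19, with limma adjusted p-values of 1.05e-08 to 0.00549. In both groups the gene ranked low by level among the 37, at place 31 in SLCDS and 33 in control.

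None of the other papain-type cathepsins passed over all libraries. CTSB, a broad cysteine protease, stood at 101, 98.4 and 99.6 FPKM in SLCDS libraries and 92.6, 95.1 and 112 FPKM in control libraries, so the groups overlapped (log2 fold change 0.00, 95% interval -0.21 to 0.21). CTSL, cathepsin L, stood at 51.3, 49.6 and 46.7 FPKM in SLCDS and 42.6, 45.3 and 57.2 FPKM in control, with control replicate 3 above every SLCDS library and the other controls below (log2 fold change 0.03; limma, adjusted p = 0.909). CTSK, cathepsin K, best known as the collagenase of osteoclasts, had 11.8 ± 0.996 FPKM in SLCDS and 12.5 ± 2.51 FPKM in control, in overlapping ranges. CTSF, cathepsin F, another lysosomal cysteine protease, had 67.8, 68.1 and 66.4 FPKM in SLCDS, under the 70.2, 74.4 and 105 FPKM of control, and did not pass (log2 fold change -0.28; limma, adjusted p = 0.386). Its log2 fold change was -0.10 when control replicate 3 was left out (limma, adjusted p = 0.104).

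Among the remaining proteases, the aspartic protease gene CTSD stood at 295, 283 and 299 FPKM in SLCDS and 246, 265 and 377 FPKM in control. The SLCDS libraries lay between control replicates 1 and 2 and control replicate 3, and the log2 fold change was 0.01 (limma, adjusted p = 0.988), or 0.19 without control replicate 3 (limma, adjusted p = 0.0106). CTSA, a carboxypeptidase that also shields neuraminidase and beta-galactosidase, had the same arrangement, with 60.4 ± 2.00 FPKM in SLCDS and 56.0 ± 10.1 FPKM in control and a log2 fold change of 0.12 (limma, adjusted p = 0.674), or 0.26 without control replicate 3 (limma, adjusted p = 0.00142). The exopeptidase gene CTSZ (24.3 ± 1.05 FPKM in SLCDS and 28.8 ± 6.22 in control) and LGMN, the asparaginyl endopeptidase legumain (18.9 ± 1.04 in SLCDS and 18.8 ± 2.36 in control), passed neither with nor without control replicate 3. CTSS, cathepsin S of antigen-presenting cells, was the gene under the filter, with 0.423, 0.0921 and 0.222 FPKM in SLCDS and 0.109, 0.250 and 0.255 FPKM in control. These ranges overlapped, and at so few fragments CTSS was not tested.

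CTSC, GPNMB and CTSS are also genes of macrophages and microglia. Of the 13 markers of those cells, 9 were listed and 1, CD14, passed the filter. Their summed level was 1.22 to 1.89 FPKM in SLCDS and 1.73 to 2.51 FPKM in control, and PTPRC, ITGAM, CX3CR1 and SPI1 were under 0.1 FPKM in every library. CD68, a lysosomal membrane protein gene of macrophages outside that list, had 4.01, 3.44 and 4.71 FPKM in SLCDS, against 2.84, 2.85 and 2.66 in control. Its groups did not overlap, and it did not pass over all libraries (log2 fold change 0.41; limma, adjusted p = 0.0737). It passed without control replicate 3 (0.39; limma, adjusted p = 0.0176). Of 7 melanocyte markers, 6 were listed and none passed the filter, their sum being 0.541 to 0.760 FPKM in SLCDS and 0.525 to 0.684 FPKM in control, with TYRP1, MLANA, SOX10 and OCA2 under 0.1 FPKM throughout. The 4 listed osteoclast markers summed to 15.7 to 17.3 FPKM in SLCDS and 9.24 to 17.2 in control, and CALCR was under 0.1 FPKM in every library. Nearly all of the sum was ACP5, a lysosomal acid phosphatase, with 15.5, 14.5 and 15.3 FPKM in SLCDS, against 7.89, 8.63 and 15.7 FPKM in control. ACP5, picked out once its values were known, passed when control replicate 3 was left out (log2 fold change 0.80; limma, adjusted p = 8.45e-06) but not over all libraries (0.52; limma, adjusted p = 0.277). All 6 neuron markers were listed, and RBFOX3 was under 0.1 FPKM in every library. The neuron markers went both ways, and none of the 4 tested passed over all libraries. Their sum, 51.2 to 52.4 FPKM in SLCDS and 62.9 to 63.9 in control, was mostly TUBB3 and MAP2. TUBB3 had 29.5 ± 1.08 FPKM in SLCDS and 39.4 ± 5.12 in control, and MAP2 14.7 ± 0.485 and 18.5 ± 4.62. SNAP25 had 6.24 ± 0.259 in SLCDS and 4.85 ± 0.592 in control, and SYP 1.08 ± 0.109 and 0.714 ± 0.272. These control values include control replicate 3. Without it, log2 fold changes were 0.26 for SNAP25, 0.41 for SYP, -0.30 for TUBB3 and -0.50 for MAP2. All 4 passed in that fit (limma, adjusted p = 0.0326, 0.0134, 0.00109 and 5.99e-05), where 16.0% of all tested genes were higher and 11.8% lower. Fibroblast and pericyte markers summed to 395 to 404 FPKM in SLCDS and 394 to 416 in control, most of it COL1A2 at 361 to 368 in SLCDS and 362 to 394 in control. All 9 of these markers were listed and 5 passed the filter, and DCN was under 0.1 FPKM in every library. Of the 5 tested, 2 rose and none fell, where 4.28% of all tested genes rose and 1.82% fell. COL1A2, PDGFRA and RGS5 were not called, at log2 fold changes of -0.04, 0.06 and 0.07. PDGFRB, a growth factor receptor of pericytes, had 1.77 ± 0.0982 FPKM in SLCDS, against 0.359 ± 0.0715 FPKM in control (log2 fold change 1.03; limma, adjusted p = 6.96e-04). ACTA2, smooth muscle actin, had 6.71, 7.82 and 7.96 FPKM in SLCDS, against 2.48, 2.11 and 3.03 FPKM in control (log2 fold change 1.27; limma, adjusted p = 0.00138). Neither had overlapping groups, and both were called in every alternative setting that tested them, 18 for PDGFRB and 19 for ACTA2. The part of such cells in these results was not tested beyond these levels. In bulk libraries, fewer cells of a type and less RNA per cell cannot be told apart.

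GPNMB encodes a glycoprotein of lysosomes and melanosomes and is a known target of MiT/TFE factors. It had 3.90, 4.80 and 4.19 FPKM in SLCDS libraries, against 1.36, 1.65 and 1.96 FPKM in control libraries. The lowest SLCDS library was well above the highest control library, and the mean FPKM was 2.59 times as high (4.30 ± 0.462 in SLCDS and 1.66 ± 0.301 in control, SD, n = 3 each). The log2 fold change was 1.00 (SE 0.11; limma, adjusted p = 0.00278), and GPNMB was called in each of the 18 alternative settings that tested it, with adjusted p-values of 2.12e-06 to 0.0234; with a mean FPKM of at least 5 as the filter it was not tested.

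WIPI1 binds the phosphoinositide that marks nascent autophagosomes. It had 11.3, 10.8 and 10.7 FPKM in SLCDS libraries, against 7.41, 7.48 and 8.62 FPKM in control libraries. The groups did not overlap, and the mean FPKM was 1.39 times as high (10.9 ± 0.331 in SLCDS and 7.84 ± 0.676 in control, SD, n = 3 each). The log2 fold change was 0.43 (SE 0.08; limma, adjusted p = 0.0235). The call was lost without any 1 library other than control replicate 3: limma's adjusted p was 0.139, 0.116 and 0.109 without SLCDS replicates 1 to 3, 0.0857 and 0.0856 without control replicates 1 and 2, and 1.33e-04 without control replicate 3, at log2 fold changes of 0.40 to 0.50.

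**Figure D2:**
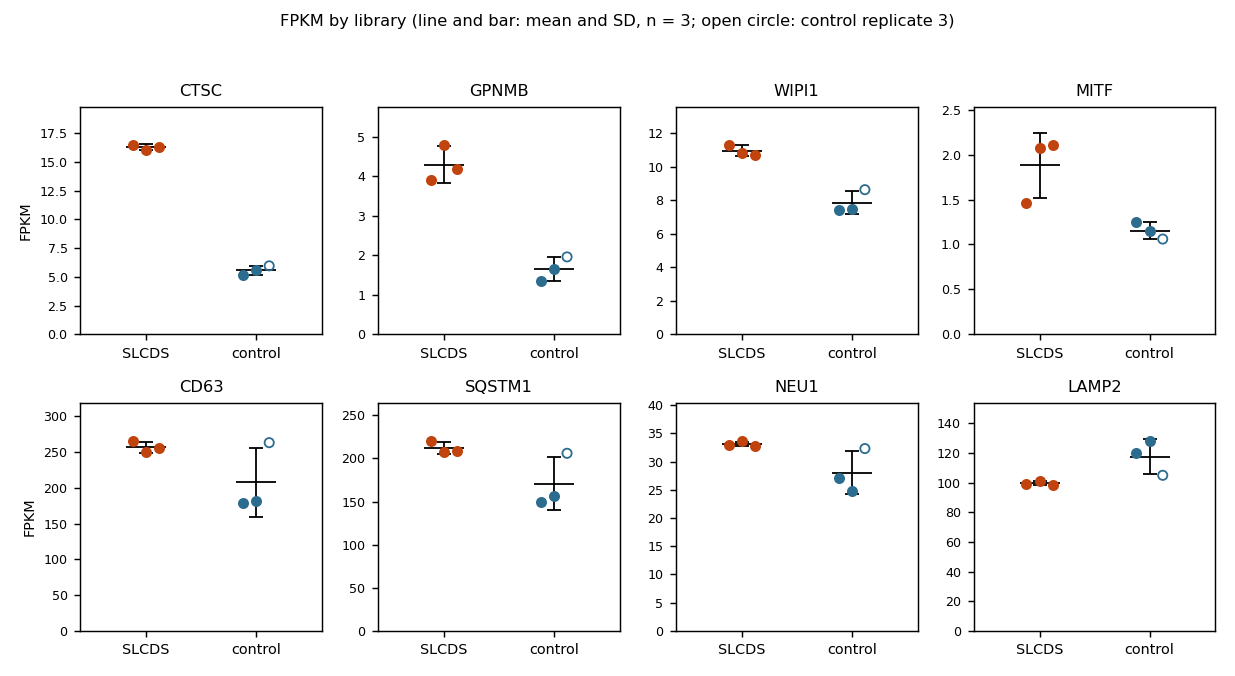
FPKM of 8 genes in each library, with SLCDS left of control, all axes starting at 0, and lines and bars for the mean and SD of 3 libraries. CTSC, GPNMB and WIPI1 differ by more than the spread within either group, while for CD63, SQSTM1 and NEU1 control replicate 3, the open circle, lies near the SLCDS libraries and away from the other controls.

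The 3 genes that rose are shown by their upstream sequence, the 250 bases before the annotated start on the strand of the gene. None of the 3 held CACGTG there or in the 50 bases after it. The same was true of 18 of the 27 promoters, these 3 included, and only 10.3% of the promoters of tested genes held it. Capitals mark CATGTG or its reverse complement CACATG, a related E-box that MITF is also known to bind, added to the search after the other motifs had been read. CATGTG was present in 7 of the 27 promoters (25.9%), against 6.29% of the promoters of tested genes and 11.2% of all promoters, and GPNMB held it at -123 and -62 relative to the start. LAMP1 is set beside them as the promoter with the most E-boxes, 6 in all, of which 5 lie whole in these 250 bases, with capitals marking the motifs named above.

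CTSC (chr11:88337737-88337986, minus strand): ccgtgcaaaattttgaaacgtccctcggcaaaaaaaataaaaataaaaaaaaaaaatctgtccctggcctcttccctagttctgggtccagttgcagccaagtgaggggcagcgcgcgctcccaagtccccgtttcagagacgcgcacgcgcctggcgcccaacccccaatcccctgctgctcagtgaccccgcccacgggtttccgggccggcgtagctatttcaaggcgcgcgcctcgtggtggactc
GPNMB (chr7:23246525-23246774, plus strand): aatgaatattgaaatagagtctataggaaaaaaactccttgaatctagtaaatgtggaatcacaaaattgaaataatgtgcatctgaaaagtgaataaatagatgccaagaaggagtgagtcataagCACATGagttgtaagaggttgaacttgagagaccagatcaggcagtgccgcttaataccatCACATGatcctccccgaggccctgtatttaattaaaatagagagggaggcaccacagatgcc
WIPI1 (chr17:68457497-68457746, minus strand): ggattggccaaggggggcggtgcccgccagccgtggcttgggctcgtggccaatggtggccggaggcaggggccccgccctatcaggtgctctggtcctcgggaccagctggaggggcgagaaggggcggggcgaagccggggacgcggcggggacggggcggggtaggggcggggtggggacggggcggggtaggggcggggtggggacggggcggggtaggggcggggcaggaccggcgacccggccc
LAMP1 (chr13:113296989-113297238, plus strand): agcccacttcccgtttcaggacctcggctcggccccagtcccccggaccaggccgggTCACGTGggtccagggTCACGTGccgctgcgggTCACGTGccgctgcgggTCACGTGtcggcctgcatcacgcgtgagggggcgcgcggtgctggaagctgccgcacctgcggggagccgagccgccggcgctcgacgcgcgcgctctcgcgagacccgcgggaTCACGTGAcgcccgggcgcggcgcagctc

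These sequences are descriptions of the windows, and the matches were not tested for binding. The 9 genes with a CACGTG in the promoter had a median log2 fold change of -0.05 and none was called. The 18 genes without one had a median of 0.06 and held the 3 that rose. Over all tested genes 4.28% rose and 1.82% fell, and 9 and 18 genes are too few to compare at such shares. With control replicate 3 left out, 4 of the 9 genes with the E-box were higher (median 0.06). Of the 18 without it 10 were higher and 1 lower (median 0.16). In that fit 16.0% of all tested genes were higher and 11.8% lower. The difference between these sets of genes was not tested.

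Of the MiT/TFE factors themselves none passed over all libraries. MITF had 1.46, 2.07 and 2.11 FPKM in SLCDS libraries, against 1.25, 1.15 and 1.06 FPKM in control libraries. The groups did not overlap, but SLCDS replicate 1 was closer to the controls than to the other SLCDS libraries, and the log2 fold change of 0.41 missed the threshold (SE 0.11; limma, adjusted p = 0.0809). It passed in 3 of 18 alternative settings, among them the one without SLCDS replicate 1 (0.0484) and the one without control replicate 3 (0.0281). The deposited values give 1 number per symbol, so the isoforms of MITF cannot be told apart. TFE3 was the most abundant of the 3 factors, with 30.3 ± 0.879 FPKM in SLCDS and 27.8 ± 1.95 FPKM in control, in ranges that overlapped (log2 fold change 0.12; limma, adjusted p = 0.460), and passed without control replicate 3 (0.18; limma, adjusted p = 0.0151). TFEB had 4.84, 4.34 and 5.44 FPKM in SLCDS and 4.12, 5.26 and 6.72 FPKM in control, in overlapping ranges (log2 fold change -0.10; limma, adjusted p = 0.794).

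The glycosidase genes did not pass over all libraries. NEU1, the lysosomal sialidase, came nearest, with 33.0, 33.6 and 32.8 FPKM in SLCDS, against 27.0, 24.8 and 32.3 FPKM in control. All SLCDS libraries were above all controls, control replicate 3 by a small margin, and the log2 fold change was 0.24 (limma, adjusted p = 0.259). It was 0.34 without control replicate 3 (limma, adjusted p = 5.85e-04), where GLA, the alpha-galactosidase of Fabry disease (0.18; limma, adjusted p = 0.0225), and the beta-glucuronidase gene GUSB (0.17; limma, adjusted p = 0.0120) were higher too. HEXA, the beta-hexosaminidase subunit of Tay-Sachs disease (54.8 ± 0.598 FPKM in SLCDS and 56.2 ± 8.78 in control), and GAA, the acid alpha-glucosidase of Pompe disease (76.4 ± 2.79 in SLCDS and 86.4 ± 12.8 in control), passed in neither fit.

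PSAP, the precursor of the saposins that help sphingolipid hydrolases reach their substrates, was the most abundant of the 37 genes in both groups. It had 2298, 2183 and 2260 FPKM in SLCDS libraries and 2318, 2288 and 2832 FPKM in control libraries. The SLCDS libraries overlapped only narrowly with control replicates 1 and 2 and lay under control replicate 3 (log2 fold change -0.14; limma, adjusted p = 0.706). Progranulin, GRN, a secreted glycoprotein needed for lysosomal function in neurons and microglia, had 285, 276 and 284 FPKM in SLCDS and 229, 235 and 344 FPKM in control. SLCDS lay above control replicates 1 and 2 and below control replicate 3, with a log2 fold change of 0.09 (limma, adjusted p = 0.820), or 0.28 without control replicate 3 (limma, adjusted p = 4.30e-04).

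PPT1, the palmitoyl-protein thioesterase of infantile neuronal ceroid lipofuscinosis, had 84.7, 84.8 and 87.7 FPKM in SLCDS, against 98.8, 94.6 and 101 FPKM in control. The SLCDS libraries were below all controls, and the difference did not pass over all libraries (log2 fold change -0.19; limma, adjusted p = 0.181) but did without control replicate 3 (-0.17; limma, adjusted p = 0.00976). TPP1, the tripeptidyl peptidase of the late infantile form, had 66.6, 64.5 and 71.3 FPKM in SLCDS and 65.3, 65.4 and 55.9 in control, the acid ceramidase gene ASAH1 68.6, 65.7 and 66.4 FPKM in SLCDS and 67.0, 67.0 and 65.1 FPKM in control libraries, and NPC2, a cholesterol carrier, 35.4 ± 0.231 in SLCDS and 36.8 ± 7.53 in control. None of these passed in either fit. For ASAH1 the 95% interval of the log2 fold change ran from -0.14 to 0.16, among the narrowest of the 36.

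Among the membrane proteins, 1 of 6 rose, GPNMB, and those that passed with control replicate 3 left out went both ways. CD63, a tetraspanin of late endosomes and secreted vesicles, had 265, 250 and 255 FPKM in SLCDS libraries, against 178, 181 and 263 FPKM in control libraries. Control replicate 3 lay within the SLCDS range and the other controls far below it, and the log2 fold change was 0.33 (SE 0.16; limma, adjusted p = 0.316). Leaving out control replicate 3, it was 0.52 (SE 0.04; limma, adjusted p = 1.04e-05), and CD63 passed in 5 of 19 alternative settings. LAMP2, which encodes a major lysosomal glycoprotein and, in one isoform, the receptor of chaperone-mediated autophagy, had 99.4, 101 and 98.6 FPKM in SLCDS, against 120, 128 and 105 FPKM in control. All SLCDS libraries were below all controls, the log2 fold change was -0.24 (limma, adjusted p = 0.222), and without control replicate 3 it was -0.32 (limma, adjusted p = 3.61e-04).

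LAMP1, the other major lysosomal membrane glycoprotein, had 139, 138 and 143 FPKM in SLCDS, against 152, 146 and 179 FPKM in control. These ranges did not overlap either, and LAMP1 passed neither over all libraries (log2 fold change -0.18; limma, adjusted p = 0.384) nor without control replicate 3 (-0.09; limma, adjusted p = 0.106). SCARB2, the sorting receptor of beta-glucocerebrosidase, stood at 134 ± 2.76 FPKM in SLCDS and 136 ± 16.0 in control, and the calcium channel gene MCOLN1, whose promoter holds the full CLEAR motif, at 21.3 ± 1.66 in SLCDS and 22.1 ± 3.27 in control (log2 fold change -0.05, 95% interval -0.32 to 0.22).

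None of the 3 proton pump subunits passed. ATP6V0D1, a subunit of the membrane sector, had 43.4, 43.8 and 44.8 FPKM in SLCDS and 43.8, 41.5 and 55.2 FPKM in control (log2 fold change -0.08, 95% interval -0.34 to 0.18). ATP6V1A, the catalytic subunit of the cytoplasmic sector, had 20.3, 19.9 and 19.4 FPKM in SLCDS and 20.2, 20.7 and 15.9 FPKM in control (log2 fold change 0.07, 95% interval -0.18 to 0.32). ATP6V1H, a regulatory subunit of that sector, had 26.2, 24.2 and 25.2 FPKM in SLCDS and 25.7 ± 3.75 FPKM (SD, n = 3) in control (log2 fold change -0.02, 95% interval -0.27 to 0.23). Leaving out control replicate 3, again none passed, and the 95% intervals lay between -0.14 and 0.20.

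Among the autophagy genes, SQSTM1, which encodes the cargo receptor p62, came nearest to WIPI1. It had 220, 207 and 209 FPKM in SLCDS libraries, against 150, 156 and 206 FPKM in control libraries. The lowest SLCDS library was just above control replicate 3 and well above the other controls, and the log2 fold change was 0.32 (SE 0.13; limma, adjusted p = 0.234). Without control replicate 3 it was 0.47 (limma, adjusted p = 2.99e-05), and SQSTM1 passed in 6 of 19 alternative settings. Both genes of ubiquitin-like proteins that coat autophagosomes stayed uncalled. GABARAPL1 had 64.3, 61.2 and 64.5 FPKM in SLCDS and 64.2, 61.2 and 63.9 FPKM in control (log2 fold change 0.00, 95% interval -0.15 to 0.16). MAP1LC3B, the LC3B gene, had 56.7, 51.0 and 56.8 FPKM in SLCDS and 52.4, 50.7 and 57.3 FPKM in control (log2 fold change 0.04, 95% interval -0.15 to 0.23). Fragments of MAP1LC3B may have been split with its near-identical copy MAP1LC3B2, which had 4.16 ± 0.490 FPKM in SLCDS and 4.73 ± 0.687 in control.

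**Figure D3:**
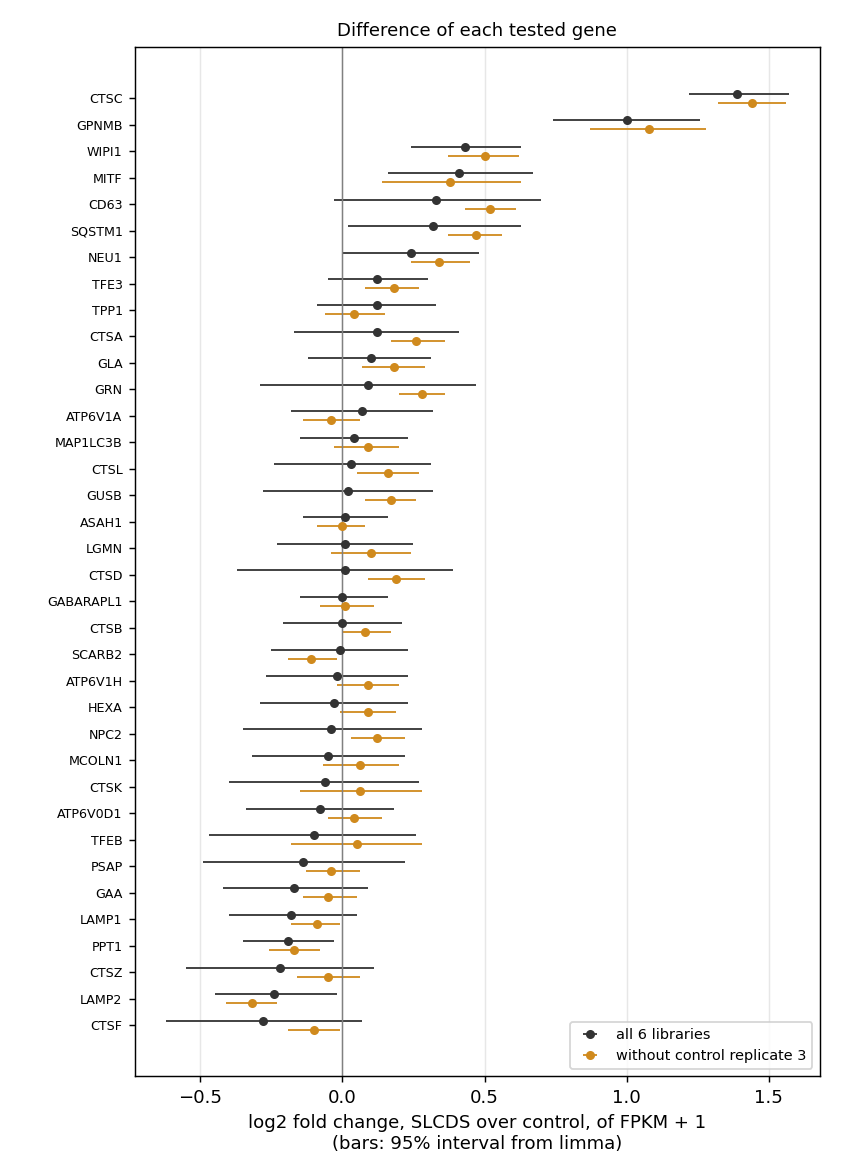
Log2 fold changes of FPKM + 1, SLCDS over control, for the 36 tested genes in order of size, with limma's 95% intervals, over all 6 libraries in black and without control replicate 3 in orange. CTSC at 1.39 and GPNMB at 1.00 stand apart from the rest, which lie between -0.28 and 0.43, and the intervals are narrower without control replicate 3.

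For 28 of the 33 tested genes that were not called, the 95% interval lay within 0.5 of 0 on the log2 scale, and all 33 lay between -0.28 and 0.41 in their estimates. Leaving out control replicate 3, 13 further genes passed: CTSA, CTSD, CTSL, GLA, GUSB, NEU1, GRN, CD63, TFE3, MITF and SQSTM1 were higher and PPT1 and LAMP2 lower. The remaining 20 passed in neither fit.

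Control replicate 3 lay above both other controls for 29 of the 36 tested genes and below both for 6, against 47.0% and 43.9% of all tested genes. Its FPKM summed to 348904 over all genes, against 295203 and 296125 in control replicates 1 and 2. The 100 most abundant genes took 26.2% of the sum in control replicate 3, against 21.7% and 21.9% in the others. The median log2 difference between control replicate 3 and the mean of the other controls was 0.30 over the 36 genes and 0.02 over all tested genes. CTSD, GRN and CD63 were 1.47, 1.48 and 1.47 times their mean in control replicates 1 and 2, while LAMP2, SCARB2 and ATP6V1A were at 0.843, 0.810 and 0.776 times it. Within the 36 genes this difference was larger at a higher GC content of the longest coding transcript (Spearman's rho 0.69, Pearson's r 0.71) and smaller at a greater length (rho -0.62), as over 11474 tested genes (rho 0.55 with GC content and -0.73 with length). These are correlations across genes of the same libraries, which are not independent replicates. The median GC content was 52.5% for the 36 genes and 48.4% for all tested genes.

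**Figure D4:**
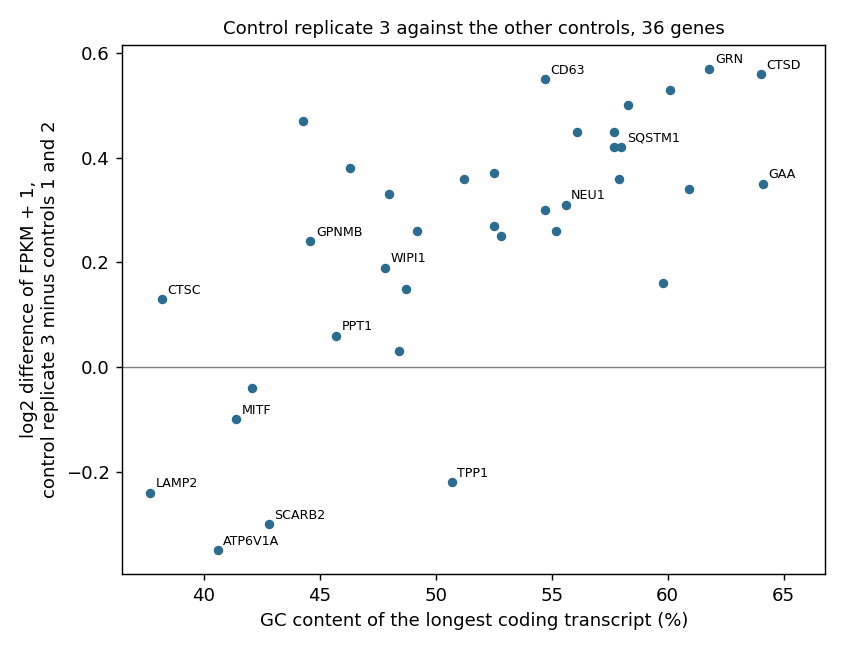
Log2 difference of FPKM + 1 between control replicate 3 and the mean of control replicates 1 and 2, against the GC content of the longest coding transcript, for the 36 tested genes, 1 point a gene. GC-rich genes such as GRN and CTSD lie near the top right and GC-poor genes such as LAMP2 and ATP6V1A at the lower left, with CTSC above 0 at a low GC content.

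With each library's trend of length and GC content removed, 6 of the 36 genes were higher (9.32% of all tested genes were) and 4 lower (8.82% of all tested genes were). The higher ones were CTSC, NEU1, CD63, GPNMB, WIPI1 and SQSTM1, and the lower ones CTSF, PPT1, LAMP1 and LAMP2. The log2 fold changes of the 3 genes called over all libraries were 1.31 for CTSC, 0.98 for GPNMB and 0.45 for WIPI1 in that fit. What set control replicate 3 apart was not tested.

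Other genes of the same pathways were read in the same way. Of 151 tested genes in 7 further lists, 3 rose (1.99%, against 4.28% of all tested genes) and none fell by limma, with 12 higher (7.95%, against 10.8% of all tested genes) and 6 lower (3.97%, against 7.81%) at an unadjusted p under 0.05. Without control replicate 3, 26 of the 151 were higher (17.2%, against 16.0%) and 6 lower (3.97%, against 11.8%). Among lysosomal membrane proteins 1 of 23 rose, OSTM1, the partner of the lysosomal chloride transporter CLCN7. It had 39.3, 38.3 and 33.9 FPKM in SLCDS libraries, against 27.3, 25.6 and 25.6 FPKM in control libraries, without overlap (log2 fold change 0.49; limma, adjusted p = 0.0138). The abundant LAPTM4A (201 ± 6.63 FPKM in SLCDS and 230 ± 20.2 in control) and LAPTM4B (67.9 ± 1.46 in SLCDS and 77.0 ± 7.04 in control) did not pass over all libraries.

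In the autophagy machinery 1 of 33 rose, ATG16L1, which places the LC3 conjugation complex on the growing membrane. It had 15.2, 15.3 and 14.7 FPKM in SLCDS, against 12.4, 11.5 and 11.7 FPKM in control (log2 fold change 0.32; limma, adjusted p = 0.0367), and was called in 12 of 19 alternative settings. The most abundant genes of the machinery, GABARAP (172, 159 and 162 FPKM in SLCDS and 169, 156 and 241 in control) and WDR45B (83.5 ± 2.65 in SLCDS and 96.8 ± 6.31 in control), did not pass over all libraries. The median log2 fold change of these 33 genes was -0.05. Without control replicate 3, 2 of them were higher (6.06%, against 16.0% of all tested genes) and 3 lower (9.09%, against 11.8%). With the trend of length and GC content removed, 1 was higher and 5 lower, where 9.32% and 8.82% of all tested genes were. Among autophagy receptors 1 of 11 rose, CCPG1, a receptor for the turnover of endoplasmic reticulum, with 34.7, 33.2 and 33.0 FPKM in SLCDS, against 25.4, 26.8 and 22.6 FPKM in control (log2 fold change 0.42; limma, adjusted p = 0.0266; called in 13 of 19 settings). BNIP3 and BNIP3L, receptors of mitophagy, stood at 174 ± 4.36 and 72.7 ± 0.923 FPKM in SLCDS and at 167 ± 22.3 and 75.2 ± 1.92 FPKM in control. Of the 11 receptors, 2 were higher without control replicate 3 (18.2%, against 16.0% of all tested genes) and none lower.

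No member was called among 26 further hydrolases, 17 further V-ATPase subunits, 22 genes of lysosomal sorting and fusion and 19 genes of mTORC1 and MiT/TFE control. Median log2 fold changes of these lists were 0.04, -0.01, -0.01 and -0.02. With control replicate 3 left out, 8 hydrolases and 6 V-ATPase subunits were higher (30.8% and 35.3%, against 16.0% of all tested genes), and 1 hydrolase was lower (3.85%, against 11.8%). In the same fit 1 gene of sorting and fusion was higher and 1 lower (4.55% each), and of the mTORC1 and MiT/TFE control genes 2 were higher (10.5%) and 1 lower (5.26%). The most abundant hydrolases were IDS, which degrades dermatan and heparan sulfate (112 ± 3.71 FPKM in SLCDS and 89.6 ± 13.2 in control), and the alpha-mannosidase gene MAN2B1 (72.2 ± 1.11 in SLCDS and 76.2 ± 7.53 in control). IDS had no overlap between the groups but was called only in 4 of 19 alternative settings. The most abundant pump genes were ATP6AP1 (235 ± 4.23 FPKM in SLCDS and 226 ± 27.8 in control) and ATP6V0B (149 ± 6.07 in SLCDS and 142 ± 22.2 in control). RAB7A, a GTPase of late endosomes, stood at 89.0 ± 2.95 FPKM in SLCDS and 89.0 ± 0.598 in control, and the adaptor gene AP3D1 at 53.3 ± 1.54 in SLCDS and 55.9 ± 2.72 in control. RRAGA and LAMTOR5, which help hold mTORC1 at the lysosome, stood at 98.0 ± 5.73 and 79.4 ± 6.42 FPKM in SLCDS and at 98.1 ± 13.8 and 79.6 ± 17.5 FPKM in control.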

How the data were processed

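RNA was prepared with TRIzol and sequenced as VAHTS Universal V6 libraries, per the labels' protocols. FPKM values were deposited by the authors, 1 file per library on a linear scale, made with an aligner and counter both not given in the sources used here. Mouse builds (GRCm38, mm10) stand in the submitters' processing notes although the cells are human, so no coordinates of the deposited values are given; promoter coordinates are RefSeq's, in GRCh38.p14.

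Groups and replicate numbers came from sample titles. A minimum of 1 FPKM in 3 libraries left 11506 genes, and log2(FPKM + 1) was compared with limma 3.58.1 in R 4.3.3 (trended variance prior, 2-sided, Benjamini-Hochberg over all tested genes); called means an adjusted p under 0.05. The procedure was tested on simulated data with the same spread in all 6 libraries and with changes only in genes of higher level. That simulation held no library set apart like control replicate 3, so it does not cover that feature of the data. The 37 genes and all lists were chosen with earlier results of these data known. Every one of the 37 is described; from each pathway list up to 4 called genes are named, or with fewer than 2 called, also the 2 most abundant; of cell type markers, GFAP, SOX2, S100B, VIM, NES and those near 0. The other markers named with values were added after their values were seen. Depth was estimated from the steps between FPKM values under 0.5, with lengths from GENCODE release 29. Length and GC trends were fitted per library as natural splines (4 degrees of freedom) and subtracted, on the 99.7% of tested genes with a length. Alternatives covered pseudocounts (0.1, 0.5), filters, scalings, variance priors, array weights, a replicate block, these trends, and each library left out. Python 3.11.15, numpy 2.4.6 and pandas 2.3.3 were used.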

Additional observations from a re-analysis of the deposited data

How the results depend on the processing

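Of 682 values of single genes under 19 alternatives, 634 kept their direction and side of the threshold or stayed uncalled, 42 gained a call, 6 lost one and none reversed a call; the 6 were all WIPI1. Signs stayed the same under every alternative for 18 of the 36 genes. Higher and lower genes among the 36 numbered 5 and 1 with quantile normalization (the lower one was PSAP), 13 and 2 with array weights, 6 and 4 after removing the trend of length and GC content, and 6 and 2 with that trend removed and a replicate block; leaving out 1 library gave 2 to 14 higher and 0 to 2 lower, most without control replicate 3. Over all genes, 492 were higher and 209 lower. These became 196 and 128 with a mean FPKM of at least 5, 1845 and 1432 with array weights, 1069 and 1012 with the trend removed, and 850 and 740 with trend removal and block. Quantile normalization gave 326 lower. Leaving out 1 library gave 210 to 1838 higher (210, 214 and 219 without SLCDS replicates 1 to 3, and 316, 310 and 1838 without control replicates 1 to 3) and 66 to 1353 lower (66, 67 and 68, and 96, 107 and 1353). Array weights gave control replicate 3 a weight of 0.065, against 1.490 to 2.101 for the others. The causes of these shifts were not tested. Whether the replicate numbers pair the libraries was not settled. Deviations of same-numbered libraries from their group means correlated at -0.326, 0.360 and 0.065, and not every library correlated best with its own number. SLCDS replicate 1 correlated at -0.326 and -0.312 with control replicates 1 and 2 and at 0.357 with control replicate 3. The control deviations thus mostly follow control replicate 3, so these correlations cannot exclude pairing. With the replicate block 346 genes were higher and 109 lower, and among the 36 genes 2 were higher (CTSC and GPNMB). Depth limits low genes such as CTSS most.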
